A study of Caenorhabditis elegans with 12 samples.

Results

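Histone genes and genes of chromatin regulators were followed in RNAseq of whole *C. elegans*. Members were the protein-coding genes whose symbol begins with a prefix of a histone or chromatin gene family (his-, htz-, hda-, set-, cec-, swsn-, cbp-, jmjd-, spr-, sir-, bet- and others), together with *lin-35*, *let-418*, *dpy-30* and *ash-2*. Of 184 such genes in the annotation, 24 were in the tables of estimated counts per library, which hold 5272 genes, 3363 of them protein-coding. The other 160 were not analysed here, among them 71 of the 72 genes named his-, all 8 linker histone genes named hil-, and *lin-35* and *let-418*. The results below are therefore about 24 genes and not about the families as a whole.

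The study asked whether FW1256, a compound that releases hydrogen sulfide, acts on gene expression like caloric restriction. There were 4 libraries from Bristol N2 wild type worms kept in 500 µM FW1256 from the L1 larval stage (FW1256-exposed WT), 4 from strain DA1116 with a mutation in *eat-2* (*eat-2* mutants) and 4 from N2 worms without the compound (unexposed WT). All were pools of whole worms at day 6 of age. The study reported delayed development and a later peak of egg laying in both FW1256-exposed WT and *eat-2* mutants, and fewer eggs in *eat-2* mutants. The same age therefore need not be the same stage of reproduction, and stage was not tested here. The *eat-2* mutation slows pumping of the pharynx, so these worms eat less and serve as a genetic model of caloric restriction. The mutation is present throughout life and in every cell, and *eat-2* itself was not analysed here. No source says which replicates came from separate cultures, so p-values measure the spread between these samples, which may be technical.

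DNA in the nucleus is wound around histones, and chromatin regulators write, remove or read chemical marks on histone tails or move the histones along DNA. Acetyltransferases and deacetylases add and remove acetyl groups, SET-domain proteins add methyl groups to lysines, demethylases take them off, chromodomain and bromodomain proteins bind modified tails, and SWI/SNF complexes remodel nucleosomes. In *C. elegans*, several such factors, among them methyltransferases of the COMPASS complex, the demethylase SPR-5 and the sirtuin SIR-2.1, have been studied for roles in the germline and in lifespan.

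Levels are given as CPM, in which the counts of a gene are set against the total of its library, scaled between libraries by the trimmed mean of M-values (TMM). They refer to totals of 14769332 to 19199982 estimated counts over the genes of the tables, not to the full depth of the libraries. All 12 libraries lay with their group on the first 2 principal components. Of the 24 genes, 23 were tested in every comparison and 1, *swsn-1*, was listed at 0 in all libraries. A check on completeness came from the mean normalised counts of the authors' own comparison tables. For 18 members the mean in the table that holds only genes of the per-library tables was within 5% of that in the table of all genes. For *ash-2* it was 1.244% of that mean, for *jmjd-4* 11.4%, for *bet-2* 21.3%, for *hda-6* 70.2% and for *cbp-1* 88.0%, and *swsn-1* had an authors' mean of 8427 in the table of all genes. The values of these 6 genes thus appear to hold only a part of their reads or none, and no level is drawn from *ash-2*, *jmjd-4* or *swsn-1*.

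Per kb of annotated transcript, the member at the highest level in every group was *htz-1* (chromosome IV, 4446216 to 4446999, WBcel235), which encodes the histone variant H2A.Z. It had 4593 ± 149 CPM per kb in FW1256-exposed WT, 4856 ± 149 in *eat-2* mutants and 4764 ± 234 in unexposed WT (SD, n = 4). Next came *dpy-30*, a subunit of COMPASS and of the dosage compensation complex, with 995 ± 25.1, 1033 ± 15.7 and 1014 ± 47.9 CPM per kb in FW1256-exposed WT, *eat-2* mutants and unexposed WT. The chromodomain gene *cec-5* and the histone H2A gene *his-35* followed in every group, and each of these 4 stood above the next by more than their SDs. From there the levels ran closer together. In unexposed WT, *cec-4*, *swsn-6* and *swsn-9* lay within their SDs of each other, between 286 and 269 CPM per kb, and so did *hda-6*, *cec-8* and *cec-10* with their neighbours. The lowest of the 21 genes with a mean of at least 20 CPM were *cbp-2* and *bet-2* in every group, with 41.5 ± 3.85 and 15.1 ± 1.77 CPM per kb in unexposed WT, although *bet-2* was counted only in part. Above them, *set-31* and *cbp-3* lay within their SDs of each other in unexposed WT (69.1 ± 5.45 and 68.6 ± 3.03 CPM per kb). The largest move in this order was that of *cec-8*, which was 18th of 21 in FW1256-exposed WT, 9th in *eat-2* mutants and 12th in unexposed WT.

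**Figure D1:**
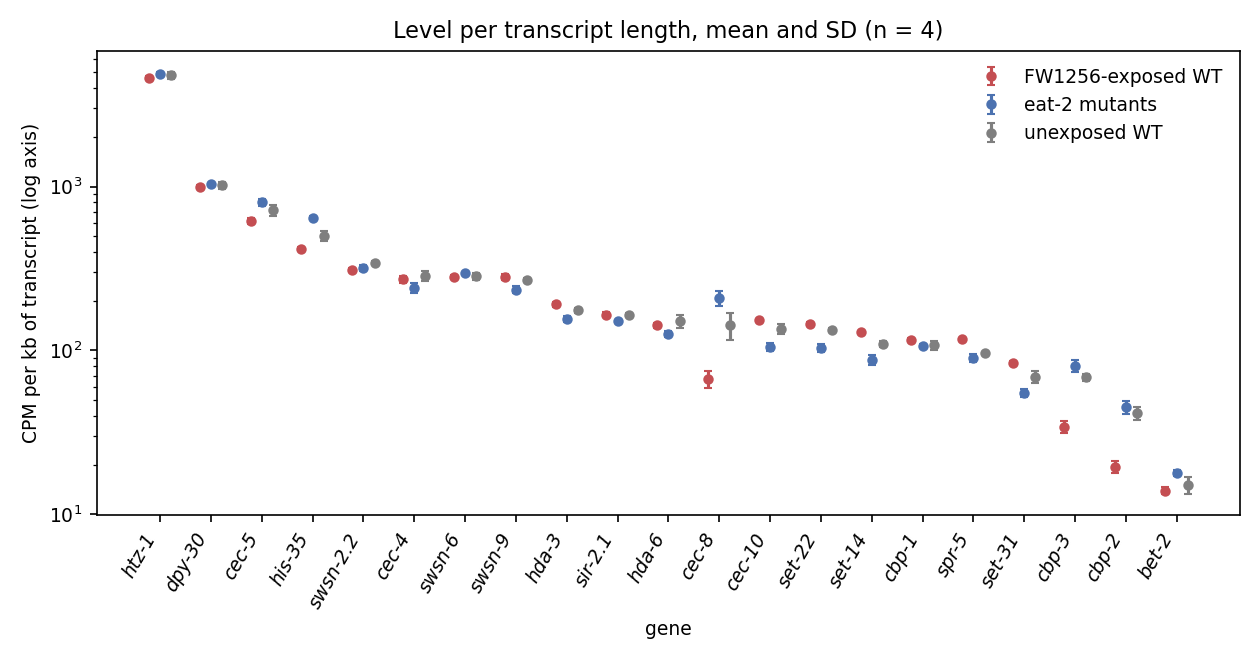
Mean level of 21 members per kb of annotated transcript in CPM per kb (log axis), with SD over 4 libraries, in FW1256-exposed WT, *eat-2* mutants and unexposed WT. Genes are ordered by their level in unexposed WT. *htz-1* stood highest, with 4593 CPM per kb in FW1256-exposed WT, 4856 in *eat-2* mutants and 4764 in unexposed WT, and *cec-8* spread most between groups, with 67.1, 209.5 and 143 CPM per kb.

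In FW1256-exposed WT against unexposed WT, 6 members rose and 6 fell. The falls were the larger: *cec-8*, *cbp-2* and *cbp-3* dropped to less than 50% of their level in unexposed WT, while the changes of *his-35*, *cec-5* and *swsn-2.2* lay between -17.2 and -10.1%. The rises lay between 7.45 and 20.6% and were those of the demethylase gene *spr-5*, the SET-domain genes *set-31*, *set-14* and *set-22*, the chromodomain gene *cec-10* and the deacetylase gene *hda-3*. A gene was called changed at an adjusted p under 0.05 in the quasi-likelihood test of edgeR, with p-values adjusted by the Benjamini-Hochberg procedure over all genes tested. The 12 of 23 members called (52.2%) stand beside 50.2% of all 3616 genes tested and 50.7% of the protein-coding genes among them. By direction the background was 25.5% higher and 24.8% lower, against 6 members each way. In 11 members the 4 libraries of each group did not overlap, against 48.1% of all genes. The share of members that changed was thus close to that of all genes, and their median log2 fold change was -0.06, or -0.03 over the 20 members without *ash-2*, *bet-2* and *jmjd-4*, beside -0.00 for all genes. Scaled by library totals alone, 3 members were called higher and 6 lower, and the split over all genes was 691 higher to 1055 lower in place of 922 to 895.

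In *eat-2* mutants against unexposed WT, 4 members rose and 9 fell. *cec-8*, *his-35* and *cbp-3* were higher by 46.3, 29.4 and 17.8%, and *ash-2*, of which only a small part was counted, was also called higher. The 3 set- genes, *cec-10*, *cec-4*, the deacetylase genes *hda-3* and *hda-6*, the sirtuin gene *sir-2.1* and the SWI/SNF gene *swsn-9* fell, with changes between -22.3 and -8.29%. The 13 of 23 members called (56.5%) stand beside 44.2% of all 3786 genes tested and 47.8% of the protein-coding genes among them. The background was 21.8% in the higher direction and 22.4% in the lower. In 14 members the groups did not overlap, against 42.9% of all genes. The median log2 fold change was -0.01 over members and 0.02 over all genes, and -0.10 over the 20 members without *ash-2*, *bet-2* and *jmjd-4*.

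In FW1256-exposed WT against *eat-2* mutants, 11 members were higher and 8 lower. The 19 of 23 members called (82.6%) stand beside 69.3% of all 3715 genes tested and 70.1% of the protein-coding genes. Over all genes 33.1% were called higher and 36.2% lower. The groups did not overlap in 19 members, against 65% of all genes. The median log2 fold change was -0.06 over members and -0.05 over all genes, and 0.11 over the 20 members without *ash-2*, *bet-2* and *jmjd-4*. Scaled by library totals alone, 7 members were called higher and 11 lower, and over all genes 1011 were called higher and 1497 lower in place of 1229 and 1346. With protein-coding genes only in the fit, the split of members also turned round, to 8 higher and 11 lower. Over all genes of that fit, 1003 were called higher and 1083 lower.

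Both comparisons with WT share the 4 unexposed WT libraries, so their results are not independent of each other and are given side by side for each gene. The comparison of FW1256-exposed WT with *eat-2* mutants holds no WT library and tests the difference between these groups itself.

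**Figure D2:**
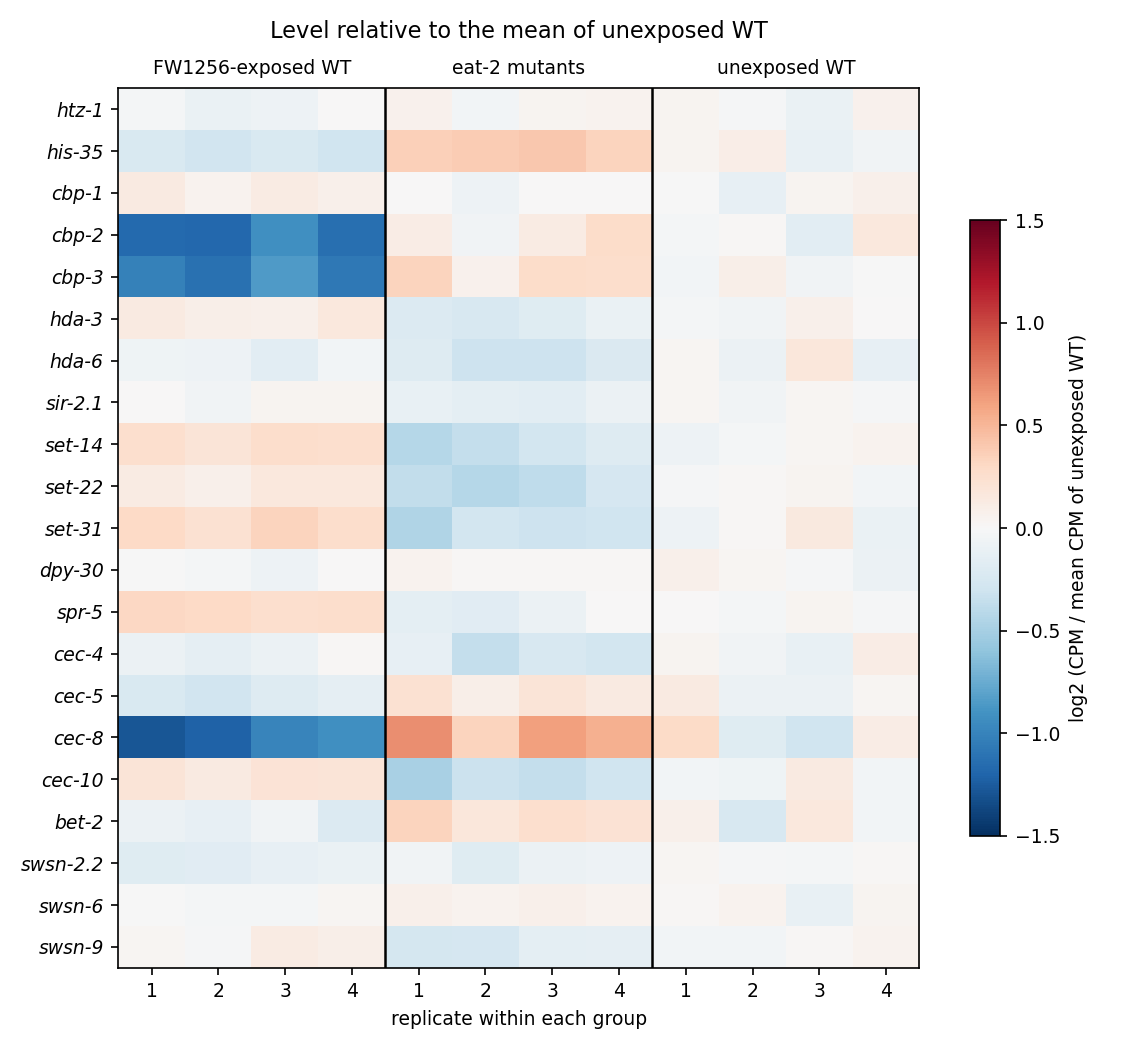
Level of 21 members in each library as the log2 ratio of its CPM to the mean CPM of unexposed WT. Columns are replicates 1 to 4 of FW1256-exposed WT, *eat-2* mutants and unexposed WT, and rows are ordered by role or family (histones, cbp- genes, deacetylases, methylation, demethylase, readers, SWI/SNF). Values ran from -1.28 (*cec-8*) to 0.33 (*set-31*) in FW1256-exposed WT, from -0.48 (*cec-10*) to 0.70 (*cec-8*) in *eat-2* mutants and from -0.30 to 0.29 (both *cec-8*) in unexposed WT.

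Among the histone genes, *his-35* (chromosome V, 9544659 to 9545288), which encodes a histone H2A, was the only one of 72 his- genes in the tables. It had 212, 204, 212 and 203 CPM in FW1256-exposed WT, 319, 324, 329 and 315 CPM in *eat-2* mutants and 257, 267, 231 and 240.1 CPM in unexposed WT. No library of any group overlapped with another group: all FW1256-exposed libraries were lower than unexposed WT and all *eat-2* libraries were higher. The log2 fold change was -0.27 ± 0.05 (SE) with FW1256 (edgeR adjusted p = 0.00132) and 0.37 ± 0.05 in *eat-2* mutants (adjusted p = 5.7e-04). Between FW1256-exposed WT and *eat-2* mutants it was -0.65 ± 0.03 (adjusted p = 2.49e-07), the smallest adjusted p of any member in any comparison. These calls held under every alternative fit and with every library left out. Histone H2A genes are close to each other in sequence, reads shared with copies outside the tables could have been split in counting, and whether libraries were selected for polyadenylated RNA is not given in the sources used here.

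*htz-1* showed no such split. It had 3416, 3253, 3316 and 3502 CPM in FW1256-exposed WT, 3649, 3405, 3586 and 3618 CPM in *eat-2* mutants and 3599.5, 3457, 3272 and 3657 CPM in unexposed WT. All 3 groups overlapped. The 95% interval of the log2 fold change was -0.17 to 0.04 with FW1256 and -0.08 to 0.14 in *eat-2* mutants (adjusted p = 0.289 and 0.675). Between FW1256-exposed WT and *eat-2* mutants it was -0.10 ± 0.04 (adjusted p = 0.0517), and this passed the threshold in 6 alternatives, among them leaving out *eat-2* replicate 2 or FW1256 replicate 4, with adjusted p from 0.00800 to 0.297 over all of them.

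Of the 3 cbp- genes, *cbp-2* and *cbp-3* fell with FW1256. *cbp-1* (chromosome III, 9766509 to 9774825), the worm counterpart of mammalian CBP and p300, is an essential histone acetyltransferase. It had 804 ± 21.8 CPM in FW1256-exposed WT, 742 ± 21.9 in *eat-2* mutants and 749 ± 46.0 in unexposed WT (SD, n = 4). It was called in neither comparison with WT (log2 fold changes 0.09 and -0.01, adjusted p = 0.158 and 0.854), although with FW1256 it passed without WT replicate 4 (adjusted p between 0.0474 and 0.650 over all alternatives). It was called higher in FW1256-exposed WT than in *eat-2* mutants (0.10 ± 0.03, adjusted p = 0.0247), and this call was lost in 6 alternatives, among them leaving out *eat-2* replicate 2 or FW1256 replicate 1 or 3 (adjusted p up to 0.636 over all alternatives).

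*cbp-2* (chromosome III, 9923174 to 9924800) and *cbp-3* (chromosome III, 9913993 to 9924768), which are named for their likeness to *cbp-1*, were lower in every FW1256-exposed library. *cbp-2* had 22.9, 22.7, 27.1 and 23.5 CPM in FW1256-exposed WT, 55.4, 49.6, 55.97 and 62.2 CPM in *eat-2* mutants and 50.1, 51.9, 45.8 and 57.2 CPM in unexposed WT. *cbp-3* had 53.5, 49.4, 59.7 and 51.1 CPM in FW1256-exposed WT, 135, 112, 130.0 and 129 CPM in *eat-2* mutants and 104, 114, 104 and 108 CPM in unexposed WT. Every FW1256-exposed library lay below every other library in both genes, while *eat-2* mutants and unexposed WT overlapped. With FW1256 the log2 fold change was -1.105 ± 0.10 for *cbp-2* (adjusted p = 2.41e-05) and -1.02 ± 0.07 for *cbp-3* (adjusted p = 7.27e-06). In *eat-2* mutants *cbp-2* was not called (0.12 ± 0.09, adjusted p = 0.308) and *cbp-3* was called higher (0.24 ± 0.07, adjusted p = 0.0161).

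The genes *cbp-2* and *cbp-3* overlap in part. Both lie on the same strand, most of *cbp-2* lies within the span of *cbp-3*, and they share 173 exon bases, which are 12.8% of the exon bases of *cbp-2* and 6.1% of those of *cbp-3*. On the opposite strand, the pseudogene WBGene00009590 overlaps 364 exon bases of *cbp-3*. It was lower with FW1256 as well, at 3.97 CPM in FW1256-exposed WT against 12.7 CPM in unexposed WT (log2 fold change -1.68, adjusted p = 7.53e-05), and it was not called in *eat-2* mutants, at 14.6 CPM (adjusted p = 0.388). A pseudogene within the span of *cbp-3* on the same strand, WBGene00014755, had 0.440 CPM in FW1256-exposed WT and 1.46 CPM in unexposed WT (adjusted p = 0.00465). In *eat-2* mutants it was called higher, at 3.25 CPM (log2 fold change 1.15, adjusted p = 0.00366). Counting is not stated to use strand, so reads from the exon bases that *cbp-3* shares with WBGene00009590, 12.8% of those of *cbp-3*, cannot be told apart. Reads from the 173 exon bases that *cbp-2* and *cbp-3* share could also have been split between them in counting. The falls of *cbp-2* and *cbp-3* may therefore not be fully separate observations, which was not tested.

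Of the deacetylase genes, all 3 fell in *eat-2* mutants. *hda-6* (chromosome IV, 5356543 to 5364306), related to mammalian HDAC6, had 330.2, 328, 311 and 336 CPM in FW1256-exposed WT, 303, 279, 279 and 297 CPM in *eat-2* mutants and 351, 325, 388 and 318 CPM in unexposed WT. The *eat-2* libraries were below all others and did not overlap with either group, while FW1256-exposed and unexposed WT overlapped. The log2 fold change in *eat-2* mutants was -0.26 ± 0.07 (adjusted p = 0.0114), and with FW1256 it was -0.09 ± 0.06 (adjusted p = 0.211). *hda-6* was counted in part, with 70.2% of the authors' mean for all genes.

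*hda-3*, a class I histone deacetylase gene on chromosome I (11912793 to 11917712), was also lower in *eat-2* mutants (log2 fold change -0.18 ± 0.05, adjusted p = 0.00949). With FW1256 it was higher by 0.10 ± 0.04 (adjusted p = 0.0464), with overlapping groups. That call was lost when FW1256 replicate 1, 2 or 4 or WT replicate 1, 2 or 4 was left out and in 4 other alternatives, with adjusted p between 0.0278 and 0.384 over all of them. *sir-2.1* (chromosome IV, 10363318 to 10366229), the sirtuin gene most studied for lifespan in worms, had 312 ± 9.69 CPM in FW1256-exposed WT, 284 ± 6.44 in *eat-2* mutants and 309 ± 8.45 in unexposed WT (SD, n = 4). With FW1256 its 95% interval was -0.08 to 0.08 on the log2 scale (adjusted p = 0.965). In *eat-2* mutants it was called lower (-0.12 ± 0.04, adjusted p = 0.0223), and this call was lost without *eat-2* replicate 1 or 3 or WT replicate 3 and with scaling by library totals alone (adjusted p between 0.00234 and 0.0919 over all alternatives).

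The 3 set- genes in the tables, each of which encodes a protein with the SET domain found in lysine methyltransferases, had the same order of groups. *set-31* (chromosome V, 14417903 to 14420144) had 146, 139, 149 and 143 CPM in FW1256-exposed WT, 86.9, 98.3, 95.9 and 96.2 CPM in *eat-2* mutants and 112, 121, 131 and 111 CPM in unexposed WT. *set-14* (chromosome II, 10793595 to 10796294) had 199, 192, 200.5 and 200.1 CPM in FW1256-exposed WT, 125, 131, 138 and 146 CPM in *eat-2* mutants and 159, 165, 172 and 174 CPM in unexposed WT. *set-22* (chromosome V, 10436912 to 10441203) had 195, 188, 198 and 199.6 CPM in FW1256-exposed WT, 138, 132, 137 and 149 CPM in *eat-2* mutants and 175, 181, 184 and 173 CPM in unexposed WT. In each gene the 3 groups were fully separated, with FW1256-exposed WT highest and *eat-2* mutants lowest. *cec-10* had the same order, and the share of all genes separated in this way was not counted. Of 31 set- genes in the annotation only these 3 were in the tables, so no trait of the family is drawn.

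With FW1256 the log2 fold changes were 0.27 ± 0.06 for *set-31* (adjusted p = 0.00300), 0.23 ± 0.04 for *set-14* (adjusted p = 0.00167) and 0.12 ± 0.04 for *set-22* (adjusted p = 0.0191). In *eat-2* mutants they were -0.33 ± 0.07, -0.31 ± 0.06 and -0.36 ± 0.05 (adjusted p = 0.00406, 0.00250 and 5.7e-04). FW1256-exposed WT stood above *eat-2* mutants by 0.59 ± 0.05, 0.54 ± 0.05 and 0.47 ± 0.04 (adjusted p = 5.28e-06, 8.54e-06 and 8.23e-06). The call of *set-22* with FW1256 was lost with scaling by library totals alone (adjusted p = 0.221), and its adjusted p lay between 0.00658 and 0.221 over all alternatives. Exons of *set-31* share 74 bases with *dhs-22* on the opposite strand.

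The COMPASS subunits gave little that could be read. *dpy-30* (chromosome V, 12191519 to 12192385) had 569 ± 14.4 CPM in FW1256-exposed WT, 591 ± 8.95 in *eat-2* mutants and 580.2 ± 27.4 in unexposed WT (SD, n = 4), and it did not pass the threshold in any comparison. Its 95% interval on the log2 scale was -0.13 to 0.05 with FW1256 and -0.07 to 0.12 in *eat-2* mutants. Between FW1256-exposed WT and *eat-2* mutants it was -0.07 ± 0.03 (adjusted p = 0.0659), with the highest FW1256-exposed library at 583 CPM just below the lowest *eat-2* library at 585 CPM. This passed the threshold in 4 alternatives, among them leaving out *eat-2* replicate 2 (adjusted p between 0.00543 and 0.526 over all of them). *ash-2* (chromosome II, 11979838 to 11989050), a core subunit of the same complex, had 2.03, 0.211, 1.13 and 0.773 CPM in FW1256-exposed WT, 4.46, 2.78, 4.05 and 3.25 CPM in *eat-2* mutants and 1.28, 1.73, 2.75 and 1.77 CPM in unexposed WT. The *eat-2* libraries were higher than all others, by a log2 fold change of 0.95 ± 0.27 against unexposed WT (adjusted p = 0.0197). The call was lost without *eat-2* replicate 1 or 3 (adjusted p = 0.0583 and 0.0539; 0.00951 to 0.0981 over all alternatives), and since these counts are 1.244% of the authors' mean over all genes, they do not give the level of *ash-2*.

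*spr-5* (chromosome I, 13438058 to 13450218) encodes a demethylase of the LSD1 type, which removes methyl groups from histone H3 and is known in worms for erasing such marks between generations. It had 312, 308, 298 and 301 CPM in FW1256-exposed WT, 226, 223, 235.3 and 251 CPM in *eat-2* mutants and 251, 244, 259 and 248 CPM in unexposed WT. All FW1256-exposed libraries were above all others, and *eat-2* mutants overlapped with unexposed WT. The log2 fold change with FW1256 was 0.27 ± 0.03 (adjusted p = 1.55e-04), the smallest adjusted p among the members that rose with it. In *eat-2* mutants it was -0.10 ± 0.05 and did not pass the threshold (adjusted p = 0.107; 0.0349 to 0.292 over all alternatives, passing without *eat-2* replicate 4), and FW1256-exposed WT stood above *eat-2* mutants by 0.36 ± 0.04 (adjusted p = 1.99e-05). *jmjd-4*, the only gene of 8 of the Jumonji family in the tables, had means of 0.993 CPM in FW1256-exposed WT, 2.14 CPM in *eat-2* mutants and 2.096 CPM in unexposed WT. It was counted in part and not called in any comparison.

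Among the readers, the 4 chromodomain genes in the tables went different ways. *cec-8* (chromosome III, 429338 to 431749) had 130.3, 136, 159 and 167 CPM in FW1256-exposed WT, 512, 398, 484 and 457 CPM in *eat-2* mutants and 387, 279, 256 and 343 CPM in unexposed WT. Its groups did not overlap, but the lowest *eat-2* library (398 CPM) stood close to the highest of unexposed WT (387 CPM), and unexposed WT had the widest spread of any group of the 20 members that were neither listed at 0 nor counted to less than 50% (18.8% of the mean). The log2 fold change was -1.11 ± 0.14 with FW1256 (adjusted p = 1.87e-04), 0.55 ± 0.13 in *eat-2* mutants (adjusted p = 0.00718) and -1.66 ± 0.10 between FW1256-exposed WT and *eat-2* mutants (adjusted p = 8.05e-07).

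*cec-5* (chromosome IV, 7578506 to 7580112) also fell with FW1256, to a lesser extent. It had 838, 810.0, 858 and 896 CPM in FW1256-exposed WT, 1152, 1043, 1123 and 1083 CPM in *eat-2* mutants and 1082, 926, 924 and 1008 CPM in unexposed WT. FW1256-exposed libraries were lower than all others, and *eat-2* mutants overlapped with unexposed WT. The log2 fold change was -0.22 ± 0.06 with FW1256 (adjusted p = 0.0117) and 0.16 ± 0.06 in *eat-2* mutants (adjusted p = 0.0547), where it passed the threshold in 5 alternatives, among them leaving out WT replicate 1 (adjusted p between 0.0167 and 0.142 over all of them).

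*cec-10* (chromosome I, 4373656 to 4379351) had the reverse pattern. It had 432, 416, 436 and 432 CPM in FW1256-exposed WT, 271, 302, 296 and 307 CPM in *eat-2* mutants and 366, 363, 415 and 369 CPM in unexposed WT. The groups did not overlap, although the lowest FW1256-exposed library (416 CPM) was only just above WT replicate 3 (415 CPM). The log2 fold change was 0.17 ± 0.04 with FW1256 (adjusted p = 0.00918), -0.36 ± 0.06 in *eat-2* mutants (adjusted p = 0.00109) and 0.53 ± 0.04 between FW1256-exposed WT and *eat-2* mutants (adjusted p = 3.51e-06). With scaling by library totals alone, the call with FW1256 was lost (adjusted p = 0.0690, the highest of all alternatives, with 0.00108 the lowest).

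*cec-4* (chromosome IV, 7575718 to 7577326), whose protein anchors chromatin carrying histone H3 methylation at the nuclear periphery, lies close to *cec-5* and did not follow it. It had 285 ± 13.6 CPM in FW1256-exposed WT, 252 ± 18.0 in *eat-2* mutants and 299.6 ± 20.6 in unexposed WT (SD, n = 4). It was not called with FW1256 (log2 fold change -0.08 ± 0.06, adjusted p = 0.267) and was called lower in *eat-2* mutants (-0.25 ± 0.06, adjusted p = 0.0125). Its 0.16 ± 0.05 higher level in FW1256-exposed WT than in *eat-2* mutants (adjusted p = 0.0256) was lost without *eat-2* replicate 2 or 4, without FW1256 replicate 4 and in 2 other alternatives (adjusted p between 0.00448 and 0.258 over all of them). Exons of *cec-4* share 141 bases with F32E10.5 on the opposite strand. The bromodomain gene *bet-2* (chromosome X, 10569273 to 10575725), counted in part, had 57.3 ± 2.71 CPM in FW1256-exposed WT, 73.5 ± 3.51 in *eat-2* mutants and 62.1 ± 7.30 in unexposed WT. It was called lower in FW1256-exposed WT than in *eat-2* mutants (-0.38 ± 0.06, adjusted p = 3.34e-04) and in neither comparison with WT (adjusted p = 0.250 and 0.0503). In *eat-2* mutants its libraries did not overlap with unexposed WT, and the change of 0.24 ± 0.09 passed the threshold in 5 alternatives, among them leaving out WT replicate 3 (adjusted p between 0.0230 and 0.101 over all of them). With FW1256 it passed without WT replicate 2 (adjusted p between 0.0396 and 0.516 over all alternatives).

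**Figure D3:**
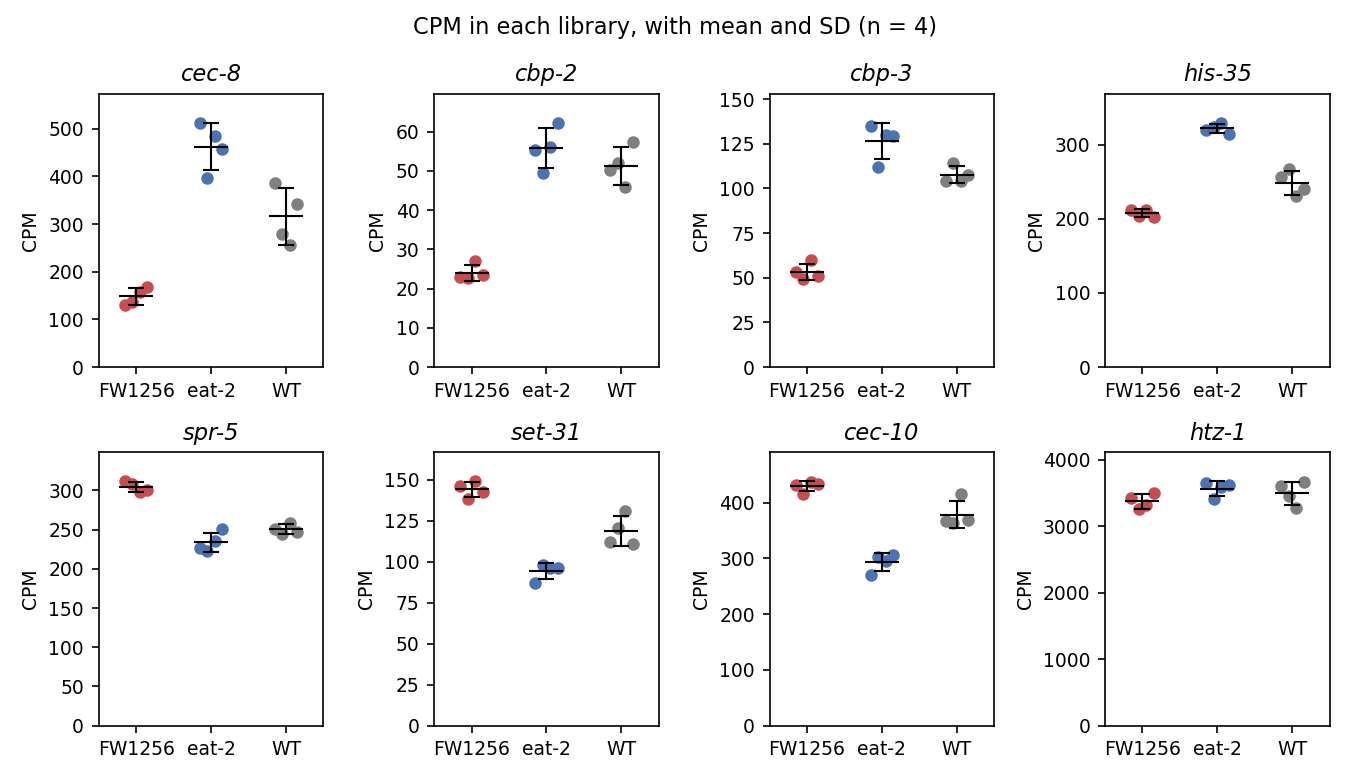
CPM in each of the 4 libraries of FW1256-exposed WT, *eat-2* mutants and unexposed WT (points) with mean and SD (bars) for *cec-8*, *cbp-2*, *cbp-3*, *his-35*, *spr-5*, *set-31*, *cec-10* and *htz-1*, each axis from 0. FW1256-exposed WT lay below both other groups in *cec-8*, *cbp-2*, *cbp-3* and *his-35* and above them in *spr-5*, *set-31* and *cec-10*, and the 3 groups overlapped in *htz-1*.

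The SWI/SNF genes changed by small amounts. *swsn-2.2* (chromosome I, 4210979 to 4212667), related to the mammalian BAF60 subunit, had 473 ± 12.9 CPM in FW1256-exposed WT, 486 ± 19.5 in *eat-2* mutants and 521 ± 11.2 in unexposed WT (SD, n = 4). It fell with FW1256 (log2 fold change -0.15 ± 0.04, adjusted p = 0.00571). In *eat-2* mutants it was -0.10 ± 0.04 and missed the threshold (adjusted p = 0.0694), although the groups did not overlap and 3 alternatives passed it (0.0145 to 0.249 over all of them). *swsn-9* (chromosome I, 7224656 to 7227765), a bromodomain subunit, had 604 ± 27.1 CPM in FW1256-exposed WT, 505 ± 23.96 in *eat-2* mutants and 579 ± 17.5 in unexposed WT. It fell in *eat-2* mutants (-0.20 ± 0.04, adjusted p = 0.00624) and was not called with FW1256 (0.05 ± 0.04, adjusted p = 0.359).

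*swsn-6* (chromosome IV, 5395033 to 5396969), an actin-related subunit, was called in neither comparison with WT, with 442 ± 9.16 CPM in FW1256-exposed WT, 465 ± 4.60 in *eat-2* mutants and 444 ± 22.8 in unexposed WT. It was called lower in FW1256-exposed WT than in *eat-2* mutants (-0.09 ± 0.03, adjusted p = 0.0172). This was the smallest called change of any member, and it was lost in 8 alternatives, among them leaving out *eat-2* replicate 3 or FW1256 replicate 1, 2 or 3 (adjusted p between 0.00201 and 0.246 over all of them). *swsn-1*, a core subunit of the complex, was listed at 0 in all libraries.

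In the direct comparison of FW1256-exposed WT with *eat-2* mutants, the members above also differed as follows. *hda-3*, *hda-6* and *sir-2.1* were higher in FW1256-exposed WT by 0.28 ± 0.04, 0.16 ± 0.04 and 0.12 ± 0.03 on the log2 scale (adjusted p = 8.54e-05, 0.00485 and 0.00883), as was *swsn-9* by 0.24 ± 0.04 (adjusted p = 7.93e-04). *cbp-2*, *cbp-3* and *cec-5* were lower, with log2 fold changes of -1.23 ± 0.09, -1.26 ± 0.08 and -0.39 ± 0.04 (adjusted p = 2.21e-06, 1.05e-06 and 3.95e-05), and so was the partly counted *ash-2* (-1.79 ± 0.49, adjusted p = 0.00836). The calls of *hda-6* and *sir-2.1* were lost with scaling by library totals alone (adjusted p = 0.135 and 0.352), and that of *sir-2.1* also over protein-coding genes only (adjusted p = 0.0778). Over all alternatives their adjusted p lay between 4.59e-04 and 0.135 and between 0.00115 and 0.352. *dpy-30*, *htz-1*, *jmjd-4* and *swsn-2.2* were not called, and *swsn-2.2* (-0.06 ± 0.04, adjusted p = 0.199) passed the threshold in 3 alternatives, among them leaving out *eat-2* replicate 2 (adjusted p between 0.0244 and 0.790 over all of them).

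**Figure D4:**
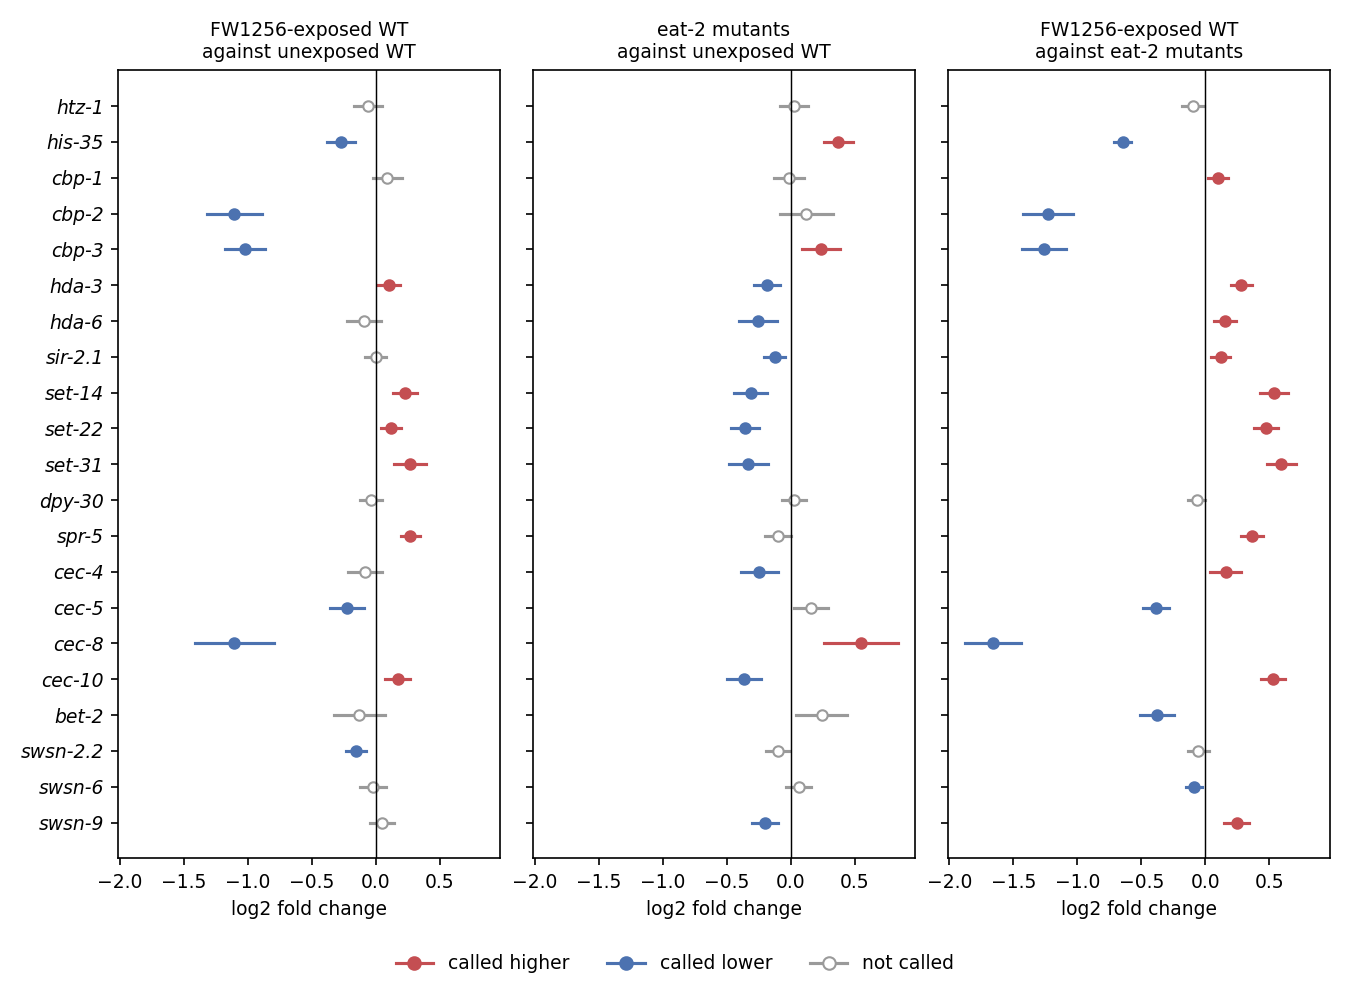
Log2 fold change (points) with its 95% interval (lines) of 21 members in FW1256-exposed WT against unexposed WT, *eat-2* mutants against unexposed WT, and FW1256-exposed WT against *eat-2* mutants. Filled points passed an adjusted p of 0.05, and the axes are shared. *cec-8*, *cbp-2* and *cbp-3* lay between -1.11 and -1.02 with FW1256, and *set-31*, *set-14* and *cec-10* lay between 0.53 and 0.59 in FW1256-exposed WT against *eat-2* mutants.

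Other chromatin genes came from lists that the naming rule does not cover. Their counts stand beside the shares of all genes, 25.5% called higher and 24.8% lower with FW1256, and 21.8% called higher and 22.4% lower in *eat-2* mutants. With 8 genes or fewer in a list, nothing particular to a list is drawn from them. Completeness was checked gene by gene for the members only. Of 5114 genes with both of the authors' means, 670 were under 50%, so genes of these lists may be counted in part. Of 8 partners in nucleosome remodelling complexes, 3 rose with FW1256 and 2 fell, with *phf-10* at 0.45 and *nurf-1*, which encodes a subunit of the NURF remodeller, at -0.61 on the log2 scale (adjusted p = 8.11e-04 and 0.00664). In *eat-2* mutants 4 of the 8 fell, with *dcp-66*, of the NuRD complex, at -0.57 and *egl-27* at -0.31 (adjusted p = 5.14e-04 and 9.35e-04). Of 3 COMPASS partners edgeR and DESeq2 called 0 with FW1256, 0 of them at an unadjusted p under 0.05 in edgeR, and in *eat-2* mutants *cfp-1*, which brings the complex to promoters, fell by 0.29 (adjusted p = 5.7e-04). Of 6 genes of the DREAM complex and the synMuv group, *dpl-1* and *lin-9* rose with FW1256, at 0.20 and 0.19. In *eat-2* mutants *dpl-1* and *lin-15A* fell and *lin-15B* rose, at -0.20, -0.17 and 0.15. There DESeq2 called 0 genes of this list higher and 3 lower, so it did not call the rise of *lin-15B*. With library totals alone as the scale, 1 gene of this list rose and 1 fell with FW1256 and 1 fell in *eat-2* mutants, 1 COMPASS partner fell with FW1256, and 2 of the 8 remodelling partners fell in *eat-2* mutants.

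The acetyltransferase partner *epc-1* rose with FW1256 by 0.38 on the log2 scale (adjusted p = 3.89e-05), and the other of the 2 tested, *ruvb-2*, was not called. In *eat-2* mutants edgeR and DESeq2 called 0 of the 2, with both at an unadjusted p under 0.05 in edgeR. The histone chaperone gene *hmg-4* was the only one tested of its list, at 0.11 with FW1256 (adjusted p = 0.0171) and -0.07 in *eat-2* mutants (adjusted p = 0.163). With library totals alone as the scale, its call with FW1256 was lost. Of 4 other methylation enzymes and readers, edgeR called 0 with FW1256, with 1 (*dot-1.1*, -0.53) at an unadjusted p under 0.05, while DESeq2 and edgeR with either other scaling each called 1 lower. In *eat-2* mutants *prmt-5*, an arginine methyltransferase, fell (-0.38, adjusted p = 4.62e-04). Of 3 tested genes of dosage compensation and condensin, edgeR and DESeq2 called 0 with FW1256, 0 of them at an unadjusted p under 0.05 in edgeR, and *sdc-2* rose in *eat-2* mutants (0.43, adjusted p = 0.00291). Of 4 genes of replication, which is coupled to histone supply, *mcm-2* rose with FW1256 (0.16, adjusted p = 0.0230) and all 4 (*mcm-2*, *mcm-4*, *mcm-5* and *rnr-1*) fell in *eat-2* mutants, where their log2 fold changes were between -0.29 and -0.15. With library totals alone as the scale, *mcm-2* was not called with FW1256 and 2 of the 4 were called lower in *eat-2* mutants.

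Whole worms at day 6 hold a germline, oocytes and embryos beside body tissues, and in bulk samples fewer cells of a type and less RNA per cell cannot be told apart. Markers of these cells moved with the groups, though the completeness of each marker was not checked. The 8 markers of oocytes and early embryos in the tables summed to 14028 to 14554 CPM in FW1256-exposed WT, 9313 to 10147 CPM in *eat-2* mutants and 12536 to 14107 CPM in unexposed WT. All 8 fell in *eat-2* mutants, and 2 (*pie-1* and *rme-2*) rose with FW1256 (with library totals alone as the scale, 2 rose and 1 fell). The 7 germline markers summed to 8539 to 8792 CPM in FW1256-exposed WT, 5732 to 6083 CPM in *eat-2* mutants and 6791 to 7593 CPM in unexposed WT, with 4 of them higher with FW1256 and 6 lower in *eat-2* mutants. Both sums had their highest mean in FW1256-exposed WT and their lowest in *eat-2* mutants, although the oocyte sums of FW1256-exposed and unexposed WT overlapped. The germline marker *deps-1* was instead called lower in FW1256-exposed WT than in *eat-2* mutants. Of the members called in both comparisons with WT, 5 had the order of the sums (the set- genes, *cec-10* and *hda-3*). The reverse order was that of 3 (*his-35*, *cec-8* and *cbp-3*). Of the calls behind these counts, that of *hda-3* with FW1256 was lost in 10 alternatives. The share of all genes with either order was not counted, so nothing particular to the members is drawn from these counts. The part of the germline, or of the stage of reproduction, in the members' values was not tested.

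The 7 body wall muscle markers were all higher in both comparisons with WT, summing to 6208 to 6734 CPM in FW1256-exposed WT, 4682 to 5781 CPM in *eat-2* mutants and 3396 to 3824 CPM in unexposed WT. The 3 intestinal markers summed to 27263 to 31615 CPM in FW1256-exposed WT, 33750 to 38274 CPM in *eat-2* mutants and 27406 to 30278 CPM in unexposed WT, with 2 of 3 called higher with FW1256 and 3 of 3 in *eat-2* mutants. Most of each sum was *vit-2*, which was not called with FW1256. It had 24682 to 28725 CPM in FW1256-exposed WT, 29353 to 32956 CPM in *eat-2* mutants and 25511 to 28258 CPM in unexposed WT. The 3 neuronal markers, of which *egl-3* was listed at 0, summed to 119.4 to 134 CPM, 148 to 166 CPM and 100.5 to 108 CPM in FW1256-exposed WT, *eat-2* mutants and unexposed WT, with 1 and 2 called higher in FW1256-exposed WT and *eat-2* mutants. Sperm markers (3), hypodermal markers (4) and the pharynx marker *myo-1* were too few or too low to describe those tissues: *spe-39* was called higher with FW1256 and lower in *eat-2* mutants, *col-12* lower in both, *lin-26* higher with FW1256 and *myo-1* higher in both. The share of these tissues in the members' values was not tested.

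**Figure D5:**
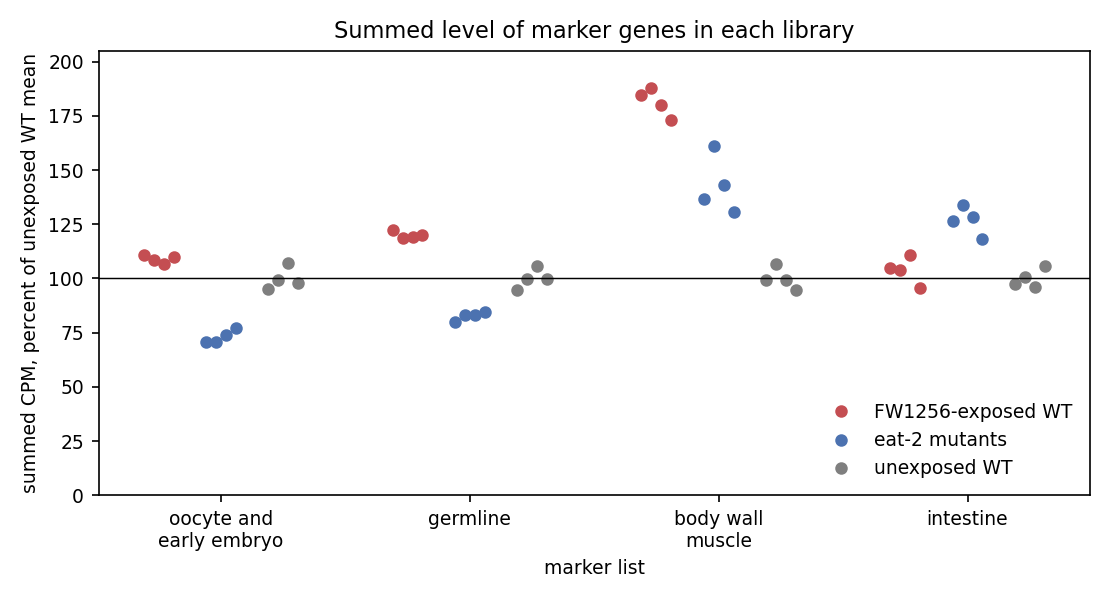
Summed CPM of marker genes of oocytes and early embryos (8 genes), germline (7), body wall muscle (7) and intestine (3) in each library, as a percent of the mean of unexposed WT, with the axis from 0. Most of the intestinal sum was *vit-2*. FW1256-exposed WT lay at 106.7 to 110.7% and *eat-2* mutants at 70.8 to 77.2% of unexposed WT for oocytes and early embryos, and at 118.9 to 122% and 79.8 to 84.7% for the germline.

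Within groups the members varied little. Over the 20 members counted to at least 50%, the coefficient of variation had a median of 2.996% in FW1256-exposed WT, 4.53% in *eat-2* mutants and 5.02% in unexposed WT, beside 4.37, 5.59 and 6.36% over all genes with a mean of at least 20 CPM. The members and these genes were not matched for level, so nothing particular to the members is drawn from the difference. The smallest changes called at this spread were 7.45% with FW1256 (*hda-3*) and -8.29% in *eat-2* mutants (*sir-2.1*). Of the 12 members called with FW1256, 9 held under every alternative fit and every library left out, as did 11 of 13 in *eat-2* mutants and 14 of 19 between FW1256-exposed WT and *eat-2* mutants.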

How the data were processed

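RNAseq of 12 samples was grouped by the labels. The authors mapped reads to the WBcel235 transcriptome with kallisto 0.46.0 and deposited estimated counts per gene, summarised as length-scaled TPM, for 5272 genes, without normalization between libraries. Of the authors' comparison tables (DESeq2 1.24.0), which also hold fold changes and p-values, only the mean normalised count, a signal that the authors averaged over libraries not named, was used, to check completeness. Symbols, positions and overlaps came from Ensembl release 115.

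Estimated counts were rounded. edgeR 4.0.16 in R 4.3.3 (filterByExpr, TMM, glmQLFit, glmQLFTest) was fitted for each pair of groups on all genes, with Benjamini-Hochberg adjustment over all genes tested and a threshold of 0.05. Totals of 14769332 to 19199982 counts limit precision for low genes. The code was tested on simulated data.

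Members and lists were chosen with earlier results of these data known. Values per library are given for up to 8 called members per comparison with no overlap, a mean of at least 1 CPM and the largest fold changes, and for histone genes. The lists were markers of oocytes and early embryos, germline, sperm, muscle, intestine, neurons, pharynx and hypodermis, and the 8 companion lists given above. Alternatives were DESeq2 1.42.0, other scaling, filters and thresholds, 1 fit over all groups, protein-coding genes only, a replicate block and leaving out each library. All 4 FW1256-exposed libraries were kept.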

Additional observations from a re-analysis of the deposited data

Results flagged for a closer look

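In each of 69 combinations of a member and a group of 4 libraries, the library farthest from the others was set against Dixon's critical value for its gap to the nearest library. Chance alone passes it in about 1 in 20 groups, and 4 passed it. *cbp-1* had 709 CPM in *eat-2* replicate 2, below the next *eat-2* library at 751 CPM. *cbp-2* had 27.1 CPM in FW1256 replicate 3, above the next FW1256-exposed library at 23.5 CPM, and still below every *eat-2* and unexposed WT library. *cec-10* had 415 CPM in WT replicate 3, above the next unexposed WT library at 369 CPM. *set-14* had 192 CPM in FW1256 replicate 2, below the next FW1256-exposed library at 199 CPM. Without *eat-2* replicate 2, the call of *cbp-1* between FW1256-exposed WT and *eat-2* mutants was lost, while the calls of *cbp-2*, *cec-10* and *set-14* held with each of these libraries left out.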

How the results depend on the processing

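Scaled by library totals alone, members called higher were 3 with FW1256 against WT and 7 in FW1256-exposed WT against *eat-2* mutants. Over protein-coding genes only, 8 members were called higher and 11 lower in FW1256-exposed WT against *eat-2* mutants. At a change of at least 1.5-fold, 3 members were called with FW1256 (0 higher, 3 lower), 1 in *eat-2* mutants (1 higher, 0 lower) and 6 between FW1256-exposed WT and *eat-2* mutants (1 higher, 5 lower). Over all genes these counts were 761 (236 higher, 525 lower), 508 (461 higher, 47 lower) and 1143 (196 higher). The 1 member called in *eat-2* mutants at this fold was *ash-2*, of which only a small part was counted. It was also among the 5 called lower between FW1256-exposed WT and *eat-2* mutants. At an adjusted p under 0.01, 8 members (2 higher) and 1054 genes (483 higher) were called in *eat-2* mutants. With 1 library left out, members called were 11 to 12 with FW1256, 11 to 14 in *eat-2* mutants and 17 to 20 in FW1256-exposed WT against *eat-2* mutants. Over all genes, those called were 1583 to 1791, 1357 to 1631 and 2425 to 2550 in the same order, beside 1817, 1674 and 2575 in the main fits.

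The signs of changes close to 0 turned round, none of them called. With FW1256 the log2 fold change of *sir-2.1* was 0.00241 with DESeq2, 0.0151 without a filter, 0.00952 in 1 fit over all groups and -0.0178 to 0.0215 with a library left out, that of *swsn-9* was -0.00901 with library totals alone and that of *swsn-6* -0.0597 to 0.00373 with a library left out. In *eat-2* mutants *cbp-1* was at 0.00711 with library totals alone, 0.00191 with at least 1 CPM in 4 libraries and 0.0117 over protein-coding genes only, and with a library left out *cbp-1* ran from -0.0415 to 0.0132, *jmjd-4* from -0.346 to 0.366, *htz-1* from -0.00534 to 0.0483 and *dpy-30* from -0.00378 to 0.0490. The cause was not tested.

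With the replicate number as a block, members called were 11, 16 and 20 and genes called 1767, 1821 and 2593 in FW1256 against WT, *eat-2* against WT and FW1256 against *eat-2*. Same-numbered libraries correlated in their deviations from group means by -0.04 to 0.34. Replicates 2 and 4 matched best with their own number in every comparison, and replicate 3 in none. In *eat-2* against WT these correlations were 0.34 for replicate 2 and 0.32 for replicate 4. The highest with another number were 0.07 and -0.07. No source names pairs, so the main fits held no block, and a batch shared by replicate number was not tested. Of 1104 values of members under alternatives, 1015 kept direction and side of the threshold, 41 lost a call, 29 gained one and 19 turned sign. Values of low genes are limited by depth, and those of the partly counted genes by the tables. Replicates of a group differed beyond sampling noise, with a chi-square per gene of 11.6 to 48.1.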
